A study of Mus musculus with 8 samples.

Results

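The CpG cytosines described here are 18539 positions on autosomes 1 to 19 that were called in at least 2 of the 3 libraries taken after 12 h of doxycycline, with no more than 10 calls in any library. They were chosen by coverage and not by the value of a call. They make up a small part of the 1067366 autosomal CpG positions called in any 12 h library and of the 1710380 called in any of the 8 libraries of the study. The question put to them was how often the libraries gave the same call at the same CpG. This describes how far calls read as 5-hydroxymethylcytosine (5hmC) differed between fixed sites.

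All libraries came from 1 mouse embryonic stem cell line in which TET1, TET2 and TET3 had been inactivated and which carried the catalytic domain of mouse TET3 on a PiggyBac transposon, switched on by doxycycline and linked to an mCherry reporter. All groups, controls included, share the triple knockout, the transposon and 50 µg/ml ascorbate in the medium. The groups were 3 untreated libraries (0 h), 2 libraries after 6 h and 3 libraries after 12 h of 1 µM doxycycline, named A, B and C by the replicate letter of the labels. The labels do not say whether the letters stand for separate cultures, so the spread between libraries may be technical. Whether the line is 1 clone is also not given. The libraries held 87030 to 157700 CpG calls at 0 h, 75023 and 294209 at 6 h and 192565 to 485941 at 12 h. Because DNA alone was sequenced, the markers that define embryonic stem cells could not be read.

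TET enzymes oxidise 5-methylcytosine to 5hmC and beyond, and a cytosine that carries no methyl group gives them no substrate. In mammalian genomes most CpGs are methylated, whereas the CpG islands found at many gene starts are mostly free of methylation. APOBEC-coupled epigenetic sequencing (ACE-seq) protects 5hmC by attaching glucose to it, after which an APOBEC enzyme deaminates unmodified cytosine and 5-methylcytosine. A call is therefore either undeaminated, read as 5hmC, or deaminated, and the 5hmC level of a set of positions is the percentage of its calls that are undeaminated. Incomplete deamination also gives undeaminated calls, and the 0 h libraries give the rate of undeaminated calls without doxycycline.

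The promoters with the most shared positions show where reads of different libraries met over many CpGs. They are not typical, since most stretches of shared positions held 1 position. The sequences below are RefSeq promoter windows of GRCm38.p6, from 250 bases before to 50 bases after a start, written 5′ to 3′ on the strand of the gene. This start need not be the gene end used for distances below. The Pcsk7 gene, for example, begins at 45906447, nearer the left edge of its window. Capitals mark the CpGs that are shared positions.
Pcsk7: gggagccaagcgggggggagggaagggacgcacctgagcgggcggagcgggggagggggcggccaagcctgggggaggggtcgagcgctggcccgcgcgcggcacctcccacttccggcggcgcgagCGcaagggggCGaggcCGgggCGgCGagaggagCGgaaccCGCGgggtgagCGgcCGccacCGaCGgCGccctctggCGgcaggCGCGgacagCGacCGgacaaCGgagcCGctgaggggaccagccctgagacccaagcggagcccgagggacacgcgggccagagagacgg
Btbd6: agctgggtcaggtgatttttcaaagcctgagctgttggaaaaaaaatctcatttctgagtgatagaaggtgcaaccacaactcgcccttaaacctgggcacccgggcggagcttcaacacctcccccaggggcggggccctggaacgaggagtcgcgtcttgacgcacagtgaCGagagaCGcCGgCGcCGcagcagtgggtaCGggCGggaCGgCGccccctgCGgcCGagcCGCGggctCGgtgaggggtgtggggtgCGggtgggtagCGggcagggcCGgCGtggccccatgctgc
Kansl3: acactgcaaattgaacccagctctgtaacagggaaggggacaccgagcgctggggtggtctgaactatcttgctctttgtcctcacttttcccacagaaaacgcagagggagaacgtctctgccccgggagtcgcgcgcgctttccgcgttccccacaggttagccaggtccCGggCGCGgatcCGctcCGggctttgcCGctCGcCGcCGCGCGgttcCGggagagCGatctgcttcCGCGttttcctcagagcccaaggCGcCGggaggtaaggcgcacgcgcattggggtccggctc
Lpar1: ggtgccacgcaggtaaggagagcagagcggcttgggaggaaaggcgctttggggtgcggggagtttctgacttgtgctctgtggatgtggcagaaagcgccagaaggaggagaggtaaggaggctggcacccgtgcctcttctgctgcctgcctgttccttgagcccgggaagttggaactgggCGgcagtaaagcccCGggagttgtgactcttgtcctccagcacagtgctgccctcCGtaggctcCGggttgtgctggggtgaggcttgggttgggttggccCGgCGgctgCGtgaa
Gbp5: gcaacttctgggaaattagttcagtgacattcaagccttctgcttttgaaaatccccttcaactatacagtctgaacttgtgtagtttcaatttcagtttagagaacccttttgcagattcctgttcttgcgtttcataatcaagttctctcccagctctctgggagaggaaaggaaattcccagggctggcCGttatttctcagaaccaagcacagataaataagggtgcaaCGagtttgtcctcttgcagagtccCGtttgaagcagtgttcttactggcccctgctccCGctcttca

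The first 3 are the windows with the most shared positions among those with an observed-to-expected CpG ratio above 0.6, called CpG-rich here. They belong to Pcsk7 (chr9:45906319-45906618, plus strand), which encodes a proprotein convertase, Btbd6 (chr12:112976313-112976612, plus strand), which encodes a BTB-domain protein, and Kansl3 (chr1:36369132-36369431, minus strand), which encodes a subunit of the NSL histone acetyltransferase complex. In the Pcsk7 window all 20 calls of 12 h library A were deaminated, and 3 of 20 calls of library B were undeaminated. In the Btbd6 window 0 of 18 calls were undeaminated in library A and 0 of 18 in library B. The Kansl3 window likewise held 0 of 17 undeaminated calls in each of libraries A and B.

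The other sequences come from the CpG-poor windows, those with a ratio of at most 0.6. Lpar1 (chr4:58553442-58553741, minus strand), which encodes a receptor for lysophosphatidic acid, had 7 shared positions with 0 of 7 undeaminated calls in library B and 0 of 7 in library C. Gbp5 (chr3:142496684-142496983, plus strand), which encodes an interferon-induced guanylate-binding protein, had 4 shared positions with 2 of 7 undeaminated calls in library B and 0 of 4 in library C.

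In all, 86 of the 20085 promoter windows of autosomal protein-coding genes in the RefSeq table held shared positions. A CG dinucleotide, searched on both strands, occurs in 95.6% of all these windows. Of the 404 shared positions counted in the 86 windows, 402 fell on one, with a position counted once for each window that holds it. All calls are of CpG cytosines, so this second count checks the coordinates only. The 2 values are unlike measures and are not to be compared. Of the 86 windows 73.3% were CpG-rich, against 48.9% of all windows in the table. A window with more CpGs has more positions that can be shared, and no share per CpG was computed. Counted once each, the 312 shared positions of the 63 CpG-rich windows had a 12 h level of 3.07 ± 2.23% (SD, n = 3 libraries). Of the 308 of them with 1 call in each of the libraries compared, 290 were deaminated in every library and 18 differed. None was undeaminated in every library, which allows a share of up to 0.974%, but at this level independent calls would give only 0.0997, so the count says nothing about agreement. The 45 shared positions of the 23 CpG-poor windows had a level of 8.54 ± 4.30% (SD, n = 3 libraries), with 34 of 41 positions deaminated throughout and 7 that differed. Both values lie far under the 12 h level over all shared positions, given next.

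At 12 h the shared positions carried 5hmC at a level somewhat below that of the rest of the autosomes, and at 0 h and 6 h their calls were nearly all deaminated. The 0 h libraries A, B and C had 3.13%, 1.93% and 0.883% undeaminated calls at them. The 6 h libraries A and B had 2.19% and 2.65%, and the 12 h libraries A, B and C had 19.3%, 20.3% and 25.1%. All 12 h libraries lay above all others, with library C the highest. The 0 h and 6 h ranges overlapped, but only with the high-copy windows described below included.

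The 12 h mean was 21.5 ± 3.09% (SD, n = 3), against 1.98 ± 1.13% at 0 h (SD, n = 3). The difference of 19.6 percentage points gave p = 0.1 in the two-sided exact test that permutes libraries between the times, the smallest p that 3 against 3 libraries allow. Against the 6 h libraries the difference was 19.1 points (two-sided exact permutation test p = 0.2, the smallest that this design gives). The 12 h libraries held 17519, 17479 and 9022 calls at shared positions, and the 95% Wilson interval of library A was 18.7 to 19.8%, for counting error only. Within each 12 h library the shared positions lay below the other autosomal positions, with differences of -3.25 points in A, -3.14 in B and -1.86 in C. The mean difference of -2.75 ± 0.774 points (SD, n = 3) gave p = 0.25 in a two-sided exact sign-flip permutation test, the smallest that 3 libraries allow.

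Part of the set lies where reads pile up. Windows of 10 kb with 200 or more calls over the 8 libraries, called high-copy windows here, numbered 18 and held 1519 shared positions (8.19%), 875 of them in the ribosomal RNA locus described later. They carried 72 of the 78 undeaminated 0 h calls at shared positions, and also 3118 of all 3700 0 h calls there. Without these windows 6 of 582 calls (1.03%) were undeaminated at 0 h and 23 of 563 (4.09%) at 6 h. By library this was 0.833%, 1.69% and 0.610% in 0 h A, B and C, and 2.63% and 4.31% in 6 h A and B. These ranges did not overlap, though few calls stand behind them (76 in 6 h A). The 12 h level was 23.6 ± 2.56% (SD, n = 3), and its difference from the other autosomal positions was then -0.668 points. With all windows kept, the other autosomal positions had 0.869%, 1.22% and 1.26% in 0 h A, B and C. In 6 h A and B they had 6.63% and 6.31%.

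The members are thinly covered. Of the 18539, 17713 were called in 2 of the 12 h libraries and 826 in all 3, and 16645 had no more than 1 call in any of the 8 libraries. CpGs per read is the rounded mean number of CpG calls on the reads over a position. By it, 13.7% of shared positions were classed as 11 or more CpGs, against 6.59% of the other 12 h positions. In the class of 1 CpG the shares were 11.8% and 21.4%. The mean covers at least 2 reads at a shared position but 1 read at a position called once. These shares are therefore not measured alike. Taking the smallest number instead put 3872 of the 17159 position pairs used below in the class of 1 CpG, against 2155. Of the 2531 shared positions with 11 or more CpGs, 868 lay in high-copy windows. Closeness to genes did not differ in the same way, since 2199 shared positions (11.9%) lay within 1 kb of an end of a protein-coding gene, against 11.2% of the other 12 h positions. A total of 101 positions met the rule but for the limit of 10 calls.

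Calls at the same CpG agreed between 12 h libraries slightly more often than library levels alone would give. Agreement was measured at 17159 position pairs, in which a position had exactly 1 call in each of 2 libraries, from 16849 of the 18539 members. Where a call was undeaminated, the call of the other library at the same CpG was undeaminated in 29.1% of cases, and where it was deaminated, in 21.2%. The difference, called the agreement here, was 7.86 percentage points. It was 7.55 points between libraries A and B, 5.18 between A and C and 11.1 between B and C. The value was above 0 in 3 of 3 pairs of libraries, and highest in the pair without library A.

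The same counts can be read as positions. Among the 16694 positions with 1 call in 2 libraries, 1132 were undeaminated in both, 5458 in 1 and 10104 in neither. Independent calls at the library levels would give 892, 5939 and 9864. Over all pairs, 1152 position pairs were undeaminated in both libraries, which is 1.27 times the number for independent calls. The libraries gave the same call at 67.4% of position pairs, against 64.5% for independent calls. The Mantel-Haenszel odds ratio, stratified by pair of libraries, was 1.53 with a 95% interval of 1.42 to 1.66. That interval covers counting error only and treats positions as independent, which neighbouring CpGs on 1 read are not.

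If each CpG had its own probability of being undeaminated, the same in every library, the covariance of the calls would be the variance of that probability between sites. Its square root, the between-site standard deviation, was 11.9 percentage points around a mean level of 23.0%. When 1 position was kept for each pair of overlapping reads, 8901 position pairs remained, the agreement was 4.24 points and the odds ratio 1.26 (95% interval 1.13 to 1.41). The between-site standard deviation was then 9.0 points.

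**Figure D1:**
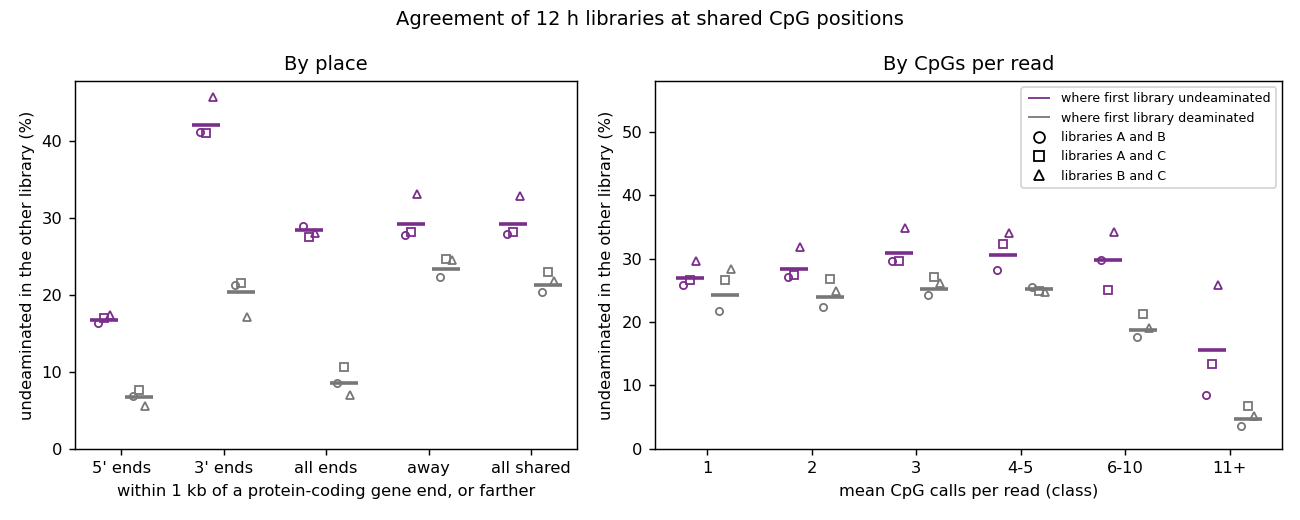
The percentage of calls undeaminated in the other 12 h library (y axis), where the first call was undeaminated and where it was deaminated, by closeness to gene ends and for all shared positions on the left and by CpGs per read on the right. Points are the 3 pairs of libraries and bars the value over all pairs. The gap is wide within 1 kb of all gene ends (28.4% against 8.57%) and of 3′ ends (42.0% against 20.4%), and narrow for reads with 1 CpG.

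The agreement was higher near the ends of genes than away from them. Within 1 kb of an end of a protein-coding gene, the other library was undeaminated in 28.4% of cases where a call was undeaminated, and in 8.57% where it was deaminated. The agreement there was 19.8 points over 2142 position pairs, with 20.3 between A and B, 16.8 between A and C and 20.9 between B and C. Farther from gene ends the 2 shares were 29.2% and 23.3% over 15017 position pairs, an agreement of 5.74 points, with 5.43, 3.51 and 8.59 in the same pairs. The ranges over pairs of libraries do not overlap. The odds ratio was 4.19 (95% interval 3.01 to 5.83) near gene ends and 1.36 (1.25 to 1.48) away from them.

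With 1 position for each pair of reads, the agreement was 20.5 points over 651 position pairs near gene ends and 3.03 over 8250 away from them. Near gene ends 65 position pairs were undeaminated in both libraries, 2.63 times the number for independent calls. Away from them it was 1087 pairs and 1.18 times. After an undeaminated call the other library was undeaminated about as often in both classes (28.4% and 29.2%). The classes differed after a deaminated call (8.57% and 23.3%).

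The levels themselves were lower near gene ends. They were 10.5%, 10.9% and 11.3% in 12 h libraries A, B and C within 1 kb of an end, against 20.2%, 21.5% and 26.7% farther away. The groups do not overlap, and the mean difference was -11.9 ± 3.07 points (SD, n = 3; two-sided exact sign-flip permutation test p = 0.25, 0.357 after Benjamini-Hochberg adjustment over 10 differences of this kind). Within the sequencing runs 1, 2 and 3 the mean difference was -9.00, -12.4 and -11.9 points. The agreement over all shared positions was 6.73 points for reads of the same run and 8.73 for reads of different runs.

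The start and the end of genes were not alike. Within 1 kb of 5′ ends, the transcription start side, libraries A, B and C had 7.43%, 7.77% and 7.66% undeaminated calls at 1394 shared positions. Within 1 kb of 3′ ends they had 22.3%, 25.2% and 25.5% at 360 positions. Levels at 5′ ends were lower than at 3′ ends in 3 of 3 libraries (mean difference -16.7 ± 1.60 points, SD, n = 3; two-sided exact sign-flip permutation test p = 0.25, adjusted 0.357). The 3′ ends differed from the positions away from gene ends by 2.10, 3.78 and -1.17 points in A, B and C, which is within the spread between libraries (exact sign-flip p = 0.5, adjusted 0.5).

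With distance from the 5′ end the mean level was 3.66 ± 2.38% within 100 bp, 5.78 ± 1.79% over 100 and up to 250 bp away and 4.88 ± 2.02% over 250 and up to 500 bp away (SD, n = 3). It was 14.4 ± 2.01% up to 1000 bp, 20.3 ± 2.46% up to 2000 bp and 23.7 ± 4.00% up to 5000 bp. The first 3 of these classes do not differ beyond their spread, and all 3 lie below the later ones. The agreement was 10.1 points at 5′ ends over 1368 position pairs, and 21.7 at 3′ ends over 348. The agreement over all gene ends, given above, pools these classes and so includes the difference in level between them. The odds ratios were 2.83 (95% interval 1.61 to 5.00) at 5′ ends and 2.86 (1.70 to 4.79) at 3′ ends, with intervals that overlap almost wholly. For 445 positions at genes whose strand was not in the table used, the ends could not be told apart and the level was 10.2 ± 2.15% (SD, n = 3).

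**Figure D2:**
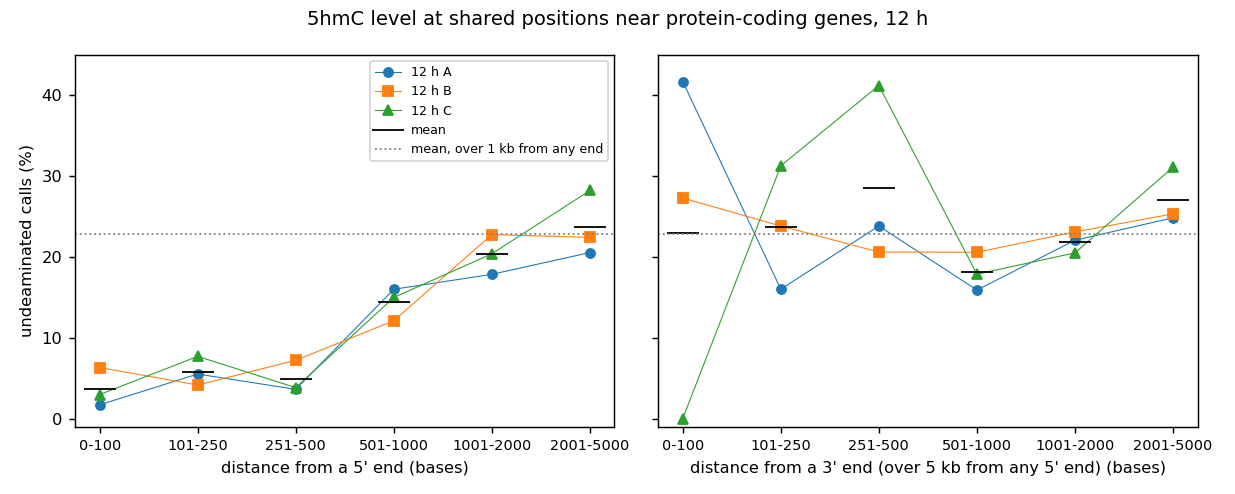
The 12 h level of 5hmC in percent (y axis) at shared positions against the distance from the 5′ and 3′ ends of protein-coding genes in base pairs (x axis), for libraries A, B and C and their mean. Levels at 5′ ends stay below 10% up to 500 bp and reach 20.3% between 1000 and 2000 bp. The means at 3′ ends, taken over 5 kb from any 5′ end, lie between 18.1% and 28.5%.

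Beyond 1 kb the agreement changed without order along the distance to the nearest gene end. It was 6.89 points at 1 to 5 kb, 8.01 at 5 to 20 kb, 2.65 at 20 to 100 kb and 5.09 over 100 kb, with 2866 to 4816 position pairs in each class. At 20 to 100 kb the value between A and C was -0.415 points. Positions in the bodies of protein-coding genes, away from their ends, had an agreement of 5.49 points, and those outside such bodies 5.95 points. These 2 values differ by less than the spread between pairs of libraries.

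The number of CpGs on the reads, which follows the local CpG density, also separated the positions. The agreement was 2.53 points for reads with 1 CpG, 4.33 with 2, 5.59 with 3, 5.32 with 4 to 5, 10.9 with 6 to 10 and 9.41 with 11 or more. The spread between pairs of libraries was wide: with 1 CpG the values were 4.10, -0.0733 and 1.17 points for A and B, A and C, and B and C, and with 11 or more they were 4.79, 6.60 and 20.7. Neighbouring classes overlap over the pairs of libraries. From the class of 1 CpG to that of 11 or more, the between-site standard deviation was 7.08, 9.09, 10.7, 10.3, 13.5 and 7.41 points. By this measure the class of 11 or more, where the level was lowest, lay near that of 1 CpG. With 1 CpG per read the odds ratio was 1.15 with a 95% interval of 0.922 to 1.44, so no agreement was detectable there at this depth. On such reads no neighbour on the same read enters the comparison.

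Levels behaved differently from the agreement. They were 25.8 ± 4.83% with 1 CpG per read, 25.5 ± 2.66% with 2, 27.1 ± 2.70% with 3 and 27.0 ± 2.18% with 4 to 5 (SD, n = 3 libraries). They were 18.7 ± 2.38% with 6 to 10 and 5.25 ± 1.48% with 11 or more. The first 4 classes do not differ beyond their spread, and in the last class every 12 h library lay below its value in every other class.

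The lower level near gene ends was seen in 3 of 3 libraries on reads with 4 or more CpGs. With 4 to 5 CpGs per read the levels were 18.04 ± 0.759% near gene ends and 27.6 ± 2.28% farther away, with a difference of -9.60 ± 2.43 points. With 6 to 10 they were 9.67 ± 2.13% near gene ends and 20.8 ± 2.74% farther away, with a difference of -11.1 ± 2.98 points. With 11 or more they were 1.97 ± 0.611% and 6.48 ± 2.54%, a difference of -4.51 ± 2.96 points. Of the 1610 positions of this last class away from gene ends, 868 lay in high-copy windows, where the level was 5.36 ± 1.10%. Without those windows the level away from gene ends was 8.61 ± 4.82% with 11 or more CpGs per read and 24.96 ± 1.79% with 6 to 10, and the differences were -6.65 ± 5.17 and -15.3 ± 2.54 points. With 1 CpG per read the difference had the other sign, 9.79 ± 7.40 points higher near gene ends, on 64 positions near them. Each of these gave p = 0.25 in the two-sided exact sign-flip permutation test (SD, n = 3 libraries; adjusted 0.357), and with 2 or 3 CpGs per read the sign varied between libraries (p = 0.5).

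Near gene ends and with 11 or more CpGs per read, 0 of 881 position pairs were undeaminated in both libraries, which allows a share of up to 0.341%. At the level of 2.04% there, independent calls would give 0.315 such pairs, so agreement could not be measured. In the same class away from gene ends it was 15 of 939 pairs, 2.26 times the number for independent calls. Without high-copy windows it was 13 of 706, against 4.55 for independent calls.

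**Figure D3:**
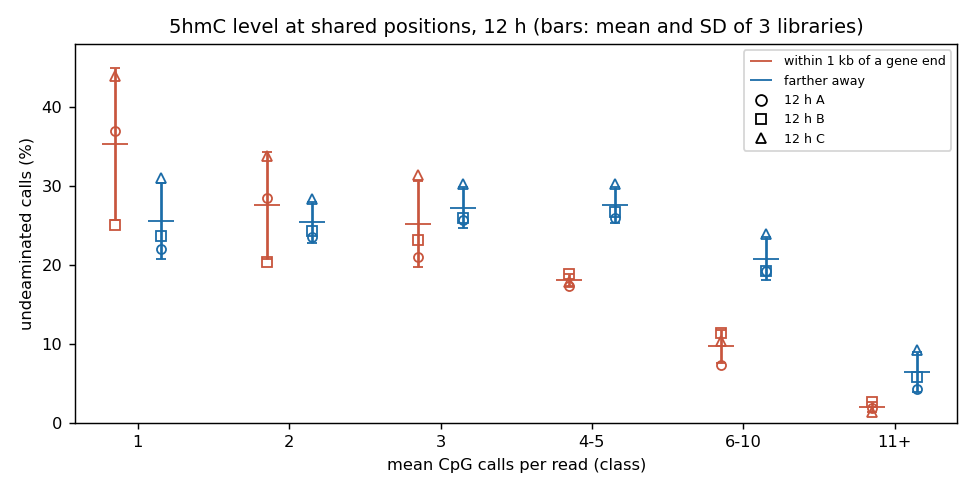
The 12 h level of 5hmC in percent (y axis) at shared positions by the number of CpGs per read (x axis), within 1 kb of gene ends and farther away, for libraries A, B and C with the mean of the 3. The levels near gene ends drop to 1.97% with 11 or more CpGs per read, and those away from them to 6.48%.

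Part of the agreement lay between these classes and the larger part within them. Stratified by pair of libraries and CpGs per read, the odds ratio was 1.36 (95% interval 1.25 to 1.47), and by pair and closeness to gene ends 1.43 (1.32 to 1.55). With both it was 1.32 (1.22 to 1.44), and 34.7% of the covariance lay between the classes. Within classes the between-site standard deviation was 9.61 points. Near gene ends alone, stratifying by CpGs per read took the odds ratio to 2.34 (1.64 to 3.35), against 4.19 without it. Away from gene ends it was 1.29 (1.18 to 1.40), against 1.36 without it. Within classes of CpGs per read the between-site standard deviation was 10.5 points near gene ends and 9.47 away from them.

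Agreement was not limited to the same CpG. In 3934 pairs of overlapping reads of different libraries that shared at least 2 CpGs, the calls of both reads at the same CpG were set beside the calls of the same reads at another shared CpG. The agreement was 10.0 points at the same CpG, with 9.77 between A and B, 7.18 between A and C and 13.2 between B and C. At another CpG it was 7.48 points, with 7.72, 6.38 and 7.96 in the same pairs. The same CpG was higher in 3 of 3 pairs of libraries, by 0.805 to 5.23 points.

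Near gene ends the values were 19.9 points at the same CpG and 16.9 at another, over 409 read pairs. Away from gene ends they were 7.33 and 4.81 over 3528 read pairs. Near the ends the pair B and C gave 18.5 points at both.

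For CpGs at a distance from each other, all autosomal positions with at most 10 calls in any library entered, whether shared or not, and at distance 0 the shared positions alone. Across distance the agreement was highest between CpGs 2 to 150 bases apart and then declined. It was 12.1 points at 2 to 10 bases, 11.2 at 11 to 50, 11.6 at 51 to 150, 9.73 over 150 and up to 500, 5.22 up to 2000 and 0.716 up to 10000 bases. CpGs 1 base apart, which are mostly the opposite strands of 1 CpG, gave 6.56 points, beside 7.86 points at distance 0. These classes hold different sets of sites, so the values are not a curve for 1 set. Away from gene ends and high-copy windows the values were 5.40 at distance 0, 3.71 at 1 base, 8.02, 6.35, 5.84, 3.54, 1.71 and 0.290 in the same classes.

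Calls on 1 read gave larger differences than calls of different libraries over the same distances. Over the same autosomal positions of the 12 h libraries, CpGs 2 to 10 bases apart on the same read gave 35.6 points, those 11 to 50 bases apart 28.8 and those 51 to 150 apart 22.6. These positions are mostly not shared ones, and the pairs on 1 read are other pairs than those between libraries. Repeat calls of 1 CpG within a library, likewise over all such positions outside high-copy windows, gave 16.3 points. This was 20.2 points for reads with the same CpG positions and 12.6 for reads with different ones, and duplicates of 1 DNA molecule are not marked in the files. Between libraries, leaving out reads that cover the same CpG positions gave an agreement of 9.07 points over 10056 position pairs.

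**Figure D4:**
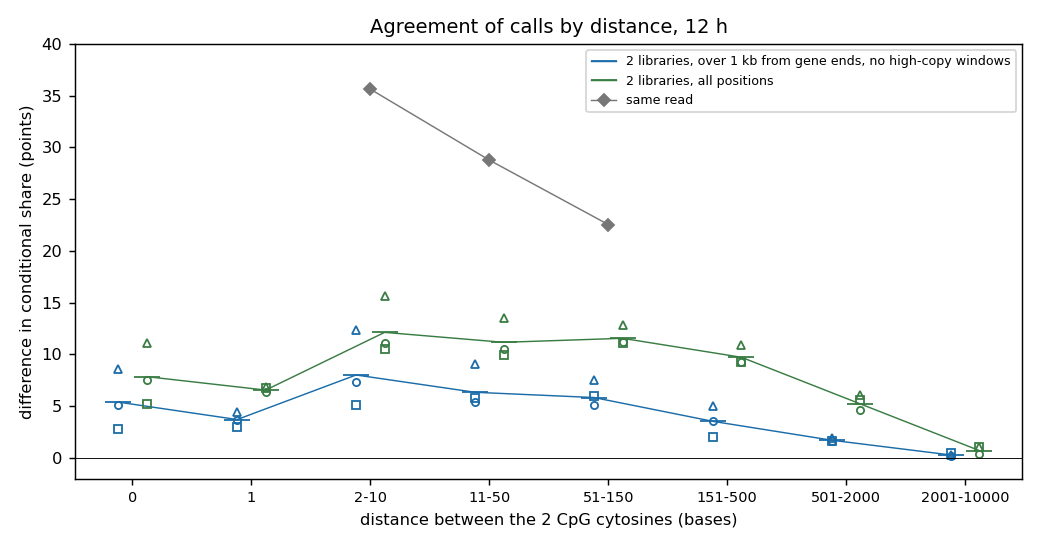
The agreement in percentage points (y axis) against the distance between the 2 CpGs in bases (x axis, classes), for calls on the same read, for calls of different 12 h libraries over all autosomal positions with at most 10 calls in any library, and for those away from gene ends and high-copy windows. Circles, squares and triangles are the pairs A and B, A and C, and B and C. Calls on the same read reach 35.6 points, and calls of different libraries decline from 12.1 points at 2 to 10 bases to 0.716 in the class that ends at 10000 bases.

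Joined where at most 300 bases apart, the shared positions formed 8702 stretches. Of these 4740 held 1 position, and 544 held at least 5, with 5273 positions together. Among the stretches of at least 5 positions outside high-copy windows, 102 lay mostly at 5′ ends, and 72 of them (70.6%) had no undeaminated 12 h call. Of 36 at other gene ends, 22 had none. Away from gene ends 83 of 370 (22.4%) had none, the median level was 20.0% and the quartiles were 5.00% and 36.2%. A level above 40% was seen in 1 stretch at 5′ ends, in 4 of the 36 at other gene ends and in 67 away from gene ends. Few calls stand behind each stretch, so these levels carry a wide counting error.

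**Figure D5:**
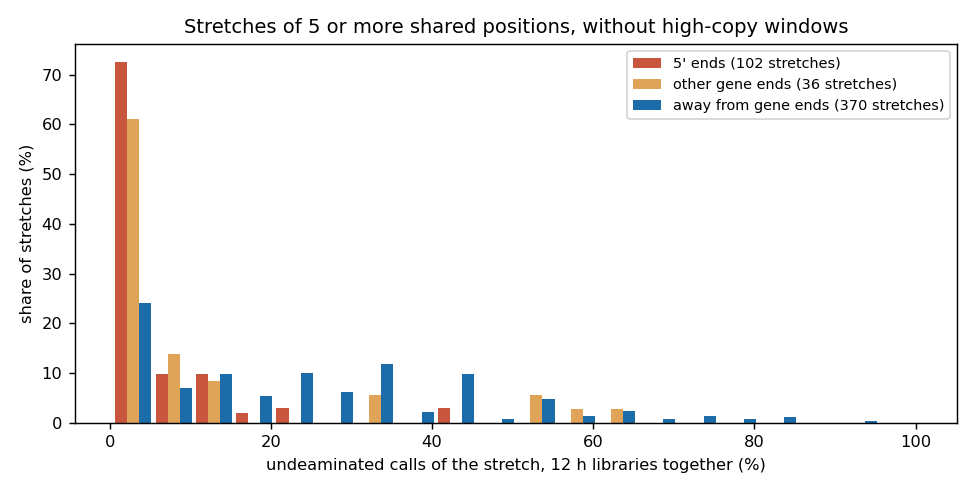
The share of stretches in percent (y axis) by their 12 h level of 5hmC in percent (x axis), for stretches of at least 5 shared positions outside high-copy windows at 5′ ends (102), at other gene ends (36) and away from them (370). Those at 5′ ends pile up at 0, and those away from gene ends spread up to 92.9%.

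The longest stretch was the ribosomal RNA gene Rn18s-rs5 with the overlapping AY036118 (chr17:39843015-39848737), a locus present in many copies. Its 875 shared positions had 53 of 1780 undeaminated calls in the 0 h libraries together, 22 of 2131 at 6 h, and 76 of 2151, 92 of 2042 and 37 of 571 in 12 h libraries A, B and C. The 12 h level was 4.30%, far under that of the other members. Of its 173 positions with single calls, 155 were deaminated throughout, 18 differed and 0 were undeaminated in every library.

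Stretches inside Cmss1 and Filip1l, which overlap, and inside Zc3h7a, which encodes a zinc-finger protein that binds RNA, were the next of the long ones within genes, and both lie in high-copy windows. The stretch in Cmss1 and Filip1l had 8 of 304 undeaminated 12 h calls (2.63%), against 0 of 194 at 0 h. That in Zc3h7a had 16 of 139 in library A, 14 of 45 in B and 1 of 44 in C, so the libraries differed widely there, against 0 of 75 at 0 h. The stretch in Sfi1, which encodes a centrin-binding protein of centrosomes, had 16 of 72, 14 of 44 and 1 of 14 undeaminated calls in 12 h libraries A, B and C, against 1 of 39 at 0 h. Of the other 4 long stretches in high-copy windows, that near Gm8797 had a 12 h level of 3.66%, and those near Mir101c and Gm33780 had 23.8 to 28.1%.

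Outside high-copy windows the longest stretch lay at the shared start region of Reep3, which encodes a protein that shapes the endoplasmic reticulum, and Jmjd1c, which encodes a protein of the JmjC histone demethylase family (chr10:67096370-67096502). It had 0 of 27 undeaminated calls in library B and 0 of 27 in library C. A stretch beside Bicdl1, which encodes an adaptor of the dynein motor (chr5:115732348-115732456), had 0 of 26 in library A and 0 of 26 in B. Each count of 0 in these 2 stretches covers all the CpGs of a few reads, so it is not a count of independent molecules.

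Of 20665 autosomal protein-coding genes, 697 had a shared position within 1 kb of an end and 3450 in the body. The genes with the most positions at an end were mostly deaminated throughout. The 10 genes with the most positions are given here. Besides Reep3, Jmjd1c and Bicdl1, these were Tex30 with 0 of 42 undeaminated 12 h calls, Ptpn2, which encodes a protein tyrosine phosphatase, with 0 of 38, and Bcr, the fusion partner of Abl1 in leukaemia, with 0 of 35. Lars2, which encodes the mitochondrial leucyl-tRNA synthetase, had 0 of 96 at 12 h and 1 of 30 at 0 h. Ube2e1, a ubiquitin-conjugating enzyme, was an exception, with 5 of 18 in library A and 0 of 18 in library C. Pcsk7 and Rnf214, whose ends lie together, had 3 of 40.

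The genes with the most positions in the body ran between 0% and 27.1% undeaminated calls. Sp8, a zinc-finger transcription factor of limb and neural development, had 0 of 64 undeaminated calls over libraries A, B and C. Camta1, a calmodulin-binding transcription activator, had 13 of 48, with 3 of 20 in A, 3 of 12 in B and 7 of 16 in C. Of its 24 positions 2 were undeaminated in both libraries, 13 in neither and 9 in 1. In Reep3 all 33 positions gave the same call in both libraries, 3 undeaminated and 30 deaminated. Gene bodies include their ends here, and 27 of these positions are the stretch at the start shared with Jmjd1c, given above. They rest on a few reads and are not a separate result. Cdk8, the kinase of the Mediator complex, had 5 of 129 calls undeaminated and lies in a high-copy window. Ccdc171 had 2 of 44.

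Members fell too thinly on gene lists for a level per gene, and lists are given as counts. The level over the shared positions outside high-copy windows, 23.1% of 34997 pooled 12 h calls, is the value to set beside them. For the numbers of genes it is the 3450 of 20665 protein-coding genes with a shared position in the body. Longer bodies have more room for such a position, and length was not accounted for. Of 20 pluripotency genes 5 held shared positions, with 9 of 30 undeaminated calls (30.0%). Among them Esrrb had 2 of 8, Fgf4 0 of 8 and Sall4 4 of 8. Of 26 imprinted genes 8 held shared positions, with 2 of 24 (8.33%), and Igf2r, the receptor that clears IGF2, had 1 of 6. Of 20 genes of early lineages 3 did, with 4 of 16, and of 16 housekeeping genes only Sdha did, with 0 of 4. Of 24 genes listed as very long and neuronal 23 held shared positions, with 47 of 197 undeaminated calls (23.9%). In these, Cdh13, a cadherin, had 9 of 25, Grid1, a glutamate receptor subunit, 6 of 20 and Wwox, which spans a common fragile site, 3 of 18.

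Of 16 genes of the DNA methylation machinery 7 held shared positions, with 25 of 61 undeaminated 12 h calls (41.0%), and most of these were in Tet3. In Tet3, 0 of 6 calls were undeaminated at 0 h, 0 of 6 at 6 h, and 10 of 14 in 12 h library A and 6 of 11 in 12 h library B. The transposon carries the catalytic domain of mouse TET3, and reads of the transposon and of the gene itself cannot be told apart here. Dnmt3l, which encodes a cofactor of the de novo methyltransferases, had 2 of 10 and Tet1 3 of 8.

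The other end of the range was looked for after the values were seen, so it carries no test. Of stretches away from gene ends, 1 lying 9391 bases from Trappc11 (chr8:47480710-47480737) had 7 of 7 undeaminated calls in library B and 6 of 7 in C. A stretch inside Tns1, which encodes tensin, an adaptor of focal adhesions (chr1:74040267-74040283), had 4 of 4 in library A and 4 of 4 in C. Stretches inside Epb41l4a, with 15 of 18 calls, near Prrxl1, with 12 of 16, and near Rit1, with 10 of 12, were also undeaminated at most of their calls. The gene table gives no exons, so whether these lie in exons or introns was not looked up.

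The 12 h calls were last set beside those of the earlier times at the same CpG. Since 2213 shared positions were also called at 0 h or 6 h, 1372 of them in high-copy windows, all autosomal positions called at both times were used, shared or not. Over 18296 pairs of a 12 h and a 6 h library at a position, the 6 h call was undeaminated in 335 of 4048 cases (8.28%) where the 12 h call was undeaminated, and in 795 of 14248 (5.58%) where it was deaminated. The difference of 2.70 points was above 0 in 6 of 6 pairs of libraries, and the odds ratio was 1.54 (95% interval 1.35 to 1.76, counting error only). Between 12 h libraries it was 1.53, on other positions, and the difference between these ratios was not tested. The pairs of libraries share libraries and are not independent.

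For the 0 h libraries, taken without doxycycline, the shares were 1.56% and 1.06%, with an odds ratio of 1.46 (1.08 to 1.97). What the undeaminated 0 h calls are was not tested. The ratio stands beside 1.54 with 6 h and 1.53 between 12 h libraries, each on its own set of positions. The agreement is one of undeaminated calls, and how much of it is one of 5hmC was not tested. The 0 h share was the higher where the 12 h call was undeaminated in 7 of 9 pairs of libraries. At the shared positions alone the 6 h call was undeaminated in 4.69% of cases where the 12 h call was undeaminated and in 3.45% where it was deaminated, over 1475 pairs. The odds ratio of 1.26 had an interval of 0.652 to 2.42, and without high-copy windows it was 0.974 (0.470 to 2.02), so at this depth a difference was not detectable there. With the 0 h call the odds ratio at the shared positions was 1.73 (0.765 to 3.89). Without high-copy windows it was 0.889 (0.0969 to 8.15), so a difference was not detectable there either.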

How the data were processed

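Each library's deposited file is output of the Bismark methylation extractor 0.22.3, per the file headers, with 1 line for each CpG cytosine and read. Its value is a call letter made by the authors, undeaminated or deaminated, with read name, chromosome and position, and depth is the number of calls. The submitters' processing notes also name Trim Galore and the build GRCm38. How reads were trimmed, and whether duplicates were removed, is not stated in these sources.

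Groups and letters came from the sample titles. Positions, calls per position and agreement were computed in Python 3.11.15 with numpy 2.4.6, pandas 2.3.3 and scipy 1.17.1, and the agreement code was tested on simulated data. The agreement is the share undeaminated in the other library after an undeaminated call minus that after a deaminated call, over both directions of each pair of libraries, at positions with exactly 1 call in each. Pairs were weighted by positions. Intervals of odds ratios are those of Robins, Breslow and Greenland at 95%. Intervals, and the limits for counts of 0 (3 counts of the total), cover counting error only. Library levels were compared by exact permutation tests, and differences within libraries by exact sign flips. No p-value was computed across sites. Gene coordinates came from a RefSeq table of GRCm38.p6 and strands from a RefSeq promoter table of that build, and genes were matched by identifier. Named genes were the 10 with most shared positions in the body and at an end, and the 3 with most in each list.

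The members, classes, gene lists and tests were chosen with earlier results of these data known. The alternatives tried were other limits of calls, positions called in all 3 libraries, 1 position for each pair of reads, reads with different CpG positions, other windows around gene ends, other counts of CpGs per read, and leaving out each library. Leaving out high-copy windows, splitting by run, splitting gene ends by strand and comparing another CpG of the same reads were added after seeing the data.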

Additional observations from a re-analysis of the deposited data

Results flagged for a closer look

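The 101 positions that were called in at least 2 of the 12 h libraries but had over 10 calls in a library are outside the set described above. They were flagged as calls that the set leaves out: 28.7% of their 7715 calls at 12 h were undeaminated, against 1.64% of 4097 calls at 0 h, with 6.43% of 3109 calls at 6 h. The 12 h libraries A, B and C had 27.3%, 26.6% and 34.5%. The other autosomal positions described above, which include these 101, had 22.5%, 23.5% and 26.9% in the same libraries. Their means were 1.12 ± 0.215% at 0 h (SD, n = 3) and 6.47 ± 0.230% at 6 h (SD, n = 2). A rise with time was therefore not particular to the 101 positions.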

How the results depend on the processing

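Of 181 agreement values recomputed under an alternative, 142 moved by less than the spread between pairs of libraries, 33 moved by more and 6 changed direction. Some of these values could hardly move. Without an upper limit of calls the same 17159 position pairs entered, and with at most 2 calls 17073 of them. Leaving out a 12 h library returns the value of 1 pair, set against a spread made from the same pairs. The count is therefore no measure of stability. Of 45 level differences, 44 kept their sign, and their tests cannot pass 0.05 in this design, which says nothing about stability. With positions called in all 3 libraries the level at shared positions differed from other positions by -9.52 points, 12 h from 0 h by 12.5 and near gene ends from away by -7.35. The shared-minus-other difference was -0.668 without high-copy windows, -1.03 with at most 2 calls in any library and -1.49 with no upper limit. With positions called in all 3 libraries (608 position pairs) the agreement was 3.70 points, the between-site standard deviation 7.93, the agreement near gene ends 4.11 (71 pairs), away from them 2.51, and the odds ratio within classes 1.07. By CpGs per read it was then 5.51 with 1, -10.3 with 2, -19.5 with 3, 26.4 with 4 to 5, -4.18 with 6 to 10 and -1.43 with 11 or more. With 1 position for each pair of reads the values were 4.24 points in all, 9.0 for the standard deviation, 3.03 away from gene ends and 0.259 with 4 to 5 CpGs per read. Without reads that cover the same CpG positions the agreement was 22.6 points near gene ends and -14.4 with 1 CpG per read (12 pairs). Near gene ends it was 22.9 points with 500 bp and 16.6 with 2 kb on either side. Without high-copy windows the agreement was 3.92 points over 500 and up to 2000 bases and 0.163 over 2000 and up to 10000. At 3′ ends alone the level differed from that away from gene ends by 1.57 points. In each case the cause was not tested.

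Leaving out a 12 h library in turn leaves 1 pair of libraries. The agreement then ran between 5.18 and 11.1 points, the standard deviation between 9.93 and 14.4, the agreement near gene ends between 16.8 and 20.9, away from them between 3.51 and 8.59, and the odds ratio within classes between 1.18 and 1.53. By CpGs per read the ranges were -0.0942 to 4.10 with 1, 0.489 to 7.13 with 2, 2.61 to 8.62 with 3, 2.65 to 8.95 with 4 to 5, 3.88 to 15.7 with 6 to 10 and 4.63 to 20.6 with 11 or more. The same CpG minus another CpG of the same reads ran between 0.805 and 5.23. The value with 1 CpG per read was below 0 without library B. By distance they were 6.36 to 6.87 at 1 base, 10.5 to 15.6 at 2 to 10, 9.96 to 13.6 at 11 to 50, 11.1 to 12.8 at 51 to 150, 9.27 to 10.9 up to 500, 4.67 to 6.04 up to 2000 and 0.426 to 1.06 up to 10000. The 12 h minus 0 h level ran between 16.97 and 20.1 points, and near gene ends minus away between -14.4 and -8.83.

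Taking the replicate letter as a block gave for the 12 h minus 0 h difference the same 19.6 points and an exact sign-flip p of 0.25, the smallest that 3 pairs allow. The labels do not say that a letter marks a shared culture or day.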
